A study of Mus musculus with 6 samples.

Results

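The MS4A genes of myeloid cells were followed in gonadal white adipose tissue (gWAT), the fat depot around the gonads. The 7 genes, Ms4a7, Ms4a4a, Ms4a4c, Ms4a4d, Ms4a6b, Ms4a6c and Ms4a6d, were chosen by symbol, through the NCBI gene identifiers of the deposited count table, and all 7 were found among its 19790 genes. RNA-seq had been done on gWAT of 6 C57BL/6 mice labelled Wild-type, with 1 library per mouse and no drug or transgene named for any group. For 8 weeks, 3 mice ate a normal chow diet (NCD) and the other 3 a high-fat diet (HFD). The labels put the start of feeding at an age of 6 weeks, whereas the study's methods give 8 weeks of age. The comparison asks how the RNA of these genes in gWAT differs after 8 weeks of HFD feeding.

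MS4A proteins cross the membrane 4 times and belong to a family whose best known members are CD20 (Ms4a1) of B cells and the beta chain of the high-affinity IgE receptor (Ms4a2) of mast cells. Ms4a7, Ms4a4a, Ms4a6c and Ms4a6d are known mainly from monocytes and macrophages, and Ms4a4a, Ms4a4c, Ms4a6b and their neighbours arose by duplication within a gene cluster. Macrophages are scarce in the fat of lean mice and accumulate in gWAT of obese mice, partly from monocytes that enter through the chemokine receptor CCR2. In whole tissue, more cells of a type and more RNA per cell cannot be told apart.

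In GRCm38 the 7 genes lie within 283.8 kb of chromosome 19 (11321039 to 11604804), among 15 Ms4a genes of the table that span 678.6 kb. In order along the chromosome they are Ms4a7 (11321039 to 11336146, minus strand), Ms4a4a (11375488 to 11392915, plus), Ms4a4c (11404717 to 11427246, plus), Ms4a6c (11469353 to 11487182, plus), Ms4a6b (11518559 to 11530403, plus), Ms4a4d (11536794 to 11558466, plus) and Ms4a6d (11586606 to 11604804, minus). Ms4a4b lies between Ms4a4c and Ms4a6c, and Ms4a2 and Ms4a3 follow Ms4a6d. Of the 50-base words in their exons, Ms4a7 and Ms4a4a shared none with another Ms4a gene, Ms4a6b shared 5.66% and Ms4a6c 6.08%, mostly with each other, and Ms4a4c shared 8.48%, mostly with Ms4a4b. Ms4a6d shared 2.69%, most with Ms4a6b, and Ms4a4d 0.546%, most with Ms4a4c. At 100 bases only Ms4a4c still shared words (1.72%). Reads of Ms4a4c, and shorter reads of Ms4a6b, Ms4a6c, Ms4a6d and Ms4a4d, may therefore be split between copies. The Ms4a6c locus also overlaps a long non-coding RNA gene, BE692007, over 9133 bases.

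Sequence before the start site was taken from RefSeq (GRCm38.p6), as the 250 bases before each start. The table gave 7 such windows for 6 members, with 2 starts for Ms4a7 and none for Ms4a6d. Ms4a6c and Ms4a6b, whose RNA levels ran most closely together of any pair of members, are shown first. Their windows shared an exact run of 48 bases, while no other pair of windows shared more than 9. The stretch below lies in that run, except its last base, and the capitals mark AGGAAGT, a motif of the ETS and PU.1 type (PU.1 is the ETS factor of myeloid cells). The first is chr19:11469340-11469367 and the second chr19:11518462-11518489, both on the plus strand.
Ms4a6c: ctttctgatatAGGAAGTacaggcacag
Ms4a6b: ctttctgatatAGGAAGTacaggcacaa

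AGGAAGT began 17 bases before the Ms4a6c start and 86 bases before the Ms4a6b start, and Ms4a6b held it again on the other strand at 43 bases. Here and below, distances are to the start at the end of each window. The Ms4a6c window ends at 11469367, past 11469353, where the gene as placed above begins, and the motif crosses that position. AGGAAGT was found on either strand in 2 of the 7 windows and in 7.69% of the 32851 promoter windows of the RefSeq table. The windows of Ms4a7 and Ms4a4d, the members that departed from the others among the HFD-fed mice, lacked AGGAAGT. So did the windows of Ms4a4a and Ms4a4c, which did not depart in this way. Ms4a7 is shown at both starts, on the minus strand, since it has 2. The first is chr19:11336147-11336396 and the second, inside the gene, is chr19:11334696-11334945. The Ms4a4d window is chr19:11536544-11536793, on the plus strand. Capitals mark TGANTCA (AP-1 type) and then AANNGAAA (IRF type, on the other strand) at the second start of Ms4a7, and AANNGAAA and then TTGCNNAA (C/EBP type, on the other strand) in Ms4a4d.
Ms4a7 first start: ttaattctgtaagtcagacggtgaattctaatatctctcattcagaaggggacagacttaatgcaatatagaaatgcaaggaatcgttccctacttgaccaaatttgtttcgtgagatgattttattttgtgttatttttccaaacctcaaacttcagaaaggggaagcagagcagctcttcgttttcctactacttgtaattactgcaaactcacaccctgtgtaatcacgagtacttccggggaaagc
Ms4a7 second start: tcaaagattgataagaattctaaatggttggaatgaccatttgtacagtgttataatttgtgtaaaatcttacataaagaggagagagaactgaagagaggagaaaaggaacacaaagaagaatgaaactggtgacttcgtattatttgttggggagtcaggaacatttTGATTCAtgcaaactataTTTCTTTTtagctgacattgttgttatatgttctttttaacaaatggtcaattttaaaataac
Ms4a4d: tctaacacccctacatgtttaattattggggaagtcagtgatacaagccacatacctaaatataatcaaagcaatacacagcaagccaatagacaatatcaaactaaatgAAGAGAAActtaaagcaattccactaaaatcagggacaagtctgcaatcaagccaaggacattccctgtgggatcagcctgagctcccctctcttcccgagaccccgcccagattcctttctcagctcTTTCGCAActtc

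The first start of Ms4a7 held none of the 4 motifs searched, nor did Ms4a4a and Ms4a4c. The Ms4a4c window, chr19:11407411-11407660, lies inside the gene as placed above. The bases before its first position, 11404717, were therefore not searched. AANNGAAA was in 3 of the 7 windows (21.3% of all promoter windows), TGANTCA in 1 (6.75%) and TTGCNNAA in 1 (9.56%), counting both strands. The AP-1 match began 81 and the IRF match 63 bases before the second Ms4a7 start, the IRF match 140 and the C/EBP match 12 bases before the Ms4a4d start, and an IRF match 166 bases before the Ms4a6c start. The 2 matches in Ms4a7 do not overlap, and neither do those in Ms4a4d. These matches describe letters only, since binding was not measured.

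The libraries held 49575113 to 66360046 counts. NCD replicate 1 stood apart, with 58.6% of its counts in 11 secretory genes of the seminal vesicle, a gland next to this fat depot in male mice, against 11.2% and 2.30% in NCD replicates 2 and 3 and 2 to 8 counts in the HFD libraries. Its scaling factor by trimmed mean of M values (TMM), which sets libraries on a common scale, was 0.496, against 1.02 to 1.27 in the others, and its adipocyte genes summed to 1902 TMM-scaled CPM (counts as a rate of the scaled library total), against 4086 to 9872 in the other 5 libraries. The summed level of epithelial genes was 1120 in NCD replicate 1, 131 and 35.4 in NCD replicates 2 and 3, and 33.6 to 141 in the HFD libraries. Results are therefore given with all 6 libraries and without NCD replicate 1. All levels are TMM-scaled CPM unless stated.

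All 7 MS4A genes had a higher mean on HFD, and Ms4a7 and Ms4a6d rose significantly (edgeR quasi-likelihood test, Benjamini-Hochberg adjusted p under 0.05 over the 15241 genes tested). These were 2 of 7 members, beside 5.58% of all genes tested called higher on HFD. Without NCD replicate 1, Ms4a7, Ms4a4d, Ms4a6b and Ms4a6d were called, 4 of 7 beside 10.7% of all genes. In 6 of 7 members every HFD library was above every NCD library, which held for 20.5% of all genes. The median log2 fold change of the members was 2.29 (2.05 without NCD replicate 1), whereas that of all genes was -0.08 (0.02).

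Ms4a7, a marker of tissue macrophages, measured 9.32, 13.5 and 8.21 in NCD replicates 1 to 3 and 85.8, 54.1 and 65.4 in HFD replicates 1 to 3. The diets did not overlap, and the lowest HFD library was 54.1 against a highest NCD value of 13.5. Its mean was 10.3 ± 2.80 on NCD and 68.4 ± 16.1 on HFD (SD, n = 3 each). The edgeR log2 fold change was 2.72 with a standard error of 0.278 (adjusted p = 0.0194), and 2.67 with a standard error of 0.309 without NCD replicate 1 (adjusted p = 0.00756). Ms4a7 had the smallest standard error of the 7 genes with all libraries, on 306 to 808 counts in NCD and 4102 to 4949 counts in HFD libraries.

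Ms4a6d, a membrane protein of macrophages, measured 5.21, 16.1 and 12.5 on NCD and 52.1, 114 and 187 on HFD. All HFD libraries were above all NCD libraries, and HFD replicate 1 was the lowest of the HFD-fed mice. The mean rose 10.4-fold, from 11.3 ± 5.57 to 118 ± 67.6 (SD, n = 3 each). This was the largest change of the 7, at a log2 fold change of 3.38 with a standard error of 0.624 (edgeR adjusted p = 0.0349). It was 3.06 with a standard error of 0.581 without NCD replicate 1 (edgeR adjusted p = 0.0211).

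Both calls were lost in smaller sets of mice. With any of the 5 mice other than NCD replicate 1 left out, the edgeR adjusted p of Ms4a7 was 0.0548 to 0.0971 and that of Ms4a6d 0.0566 to 0.118, while only 2 to 7 genes of the whole table were then called. In DESeq2, 6 of the 7 members passed, all but Ms4a4d, beside 14.2% of the 15204 genes with an adjusted p that DESeq2 called higher on HFD.

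**Figure D1:**
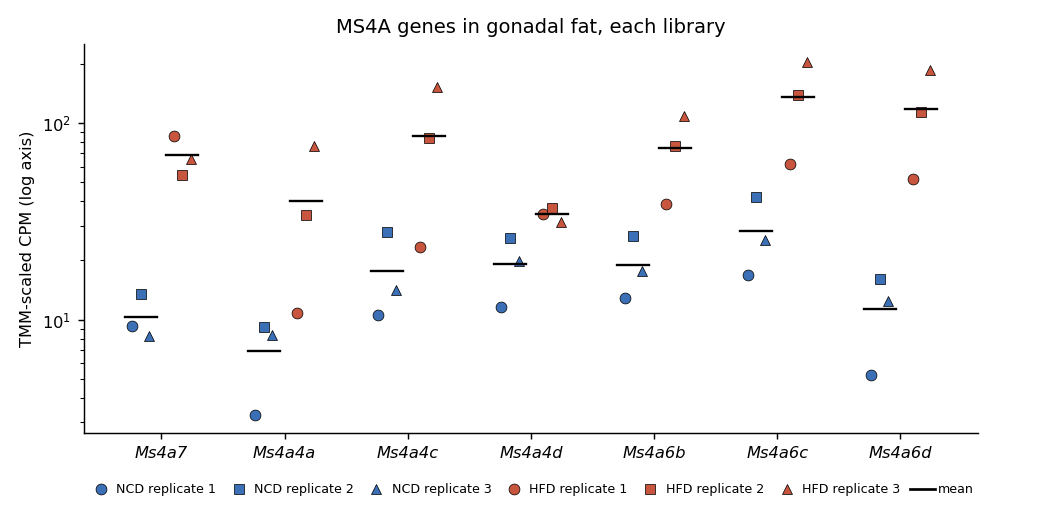
TMM-scaled CPM (log axis) of the 7 MS4A genes in each library, NCD in blue and HFD in red, with 1 marker shape per replicate number and a bar at the mean of 3 mice. Only for Ms4a4c does an HFD library (23.4, replicate 1) fall below an NCD library (28.0, replicate 2).

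Ms4a6b and Ms4a6c, neighbours on the chromosome, had like profiles. Ms4a6b measured 12.9, 26.5 and 17.6 on NCD and 38.9, 76.4 and 108 on HFD. Ms4a6c measured 16.8, 42.2 and 25.4 on NCD and 62.0, 138 and 205 on HFD. In both genes HFD replicate 1 was lowest and HFD replicate 3 highest of the HFD-fed mice, and no HFD library overlapped the NCD range. The means were 19.0 ± 6.90 against 74.5 ± 34.6 for Ms4a6b, and 28.1 ± 12.9 against 135 ± 71.6 for Ms4a6c (SD, n = 3 each). Neither passed the test with all libraries. The log2 fold change of Ms4a6b was 1.97 with a standard error of 0.444 (edgeR adjusted p = 0.0520). That of Ms4a6c was 2.26 with a standard error of 0.535 (edgeR adjusted p = 0.0568). Without NCD replicate 1 the values were 1.77 (edgeR adjusted p = 0.0479) and 2.02 (edgeR adjusted p = 0.0528), so only Ms4a6b passed. Over the 6 libraries the log2 levels of the pair had a Pearson r of 0.9995, a description over libraries that share a diet and a scaling, for genes that share part of their exon sequence.

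Ms4a4a and Ms4a4c varied most among the HFD-fed mice. Ms4a4a, a surface protein of macrophages, measured 3.26, 9.20 and 8.37 on NCD and 10.8, 33.9 and 76.0 on HFD. HFD replicate 1 stood just above the NCD range and HFD replicate 3 was 7.02 times as high as HFD replicate 1. The log2 fold change was 2.53 with a standard error of 0.766 (edgeR adjusted p = 0.0923), and 2.22 without NCD replicate 1 (edgeR adjusted p = 0.103). Ms4a4c measured 10.6, 28.0 and 14.1 on NCD and 23.4, 83.5 and 151.7 on HFD. HFD replicate 1 fell within the NCD range, and Ms4a4c was the only member whose diets overlapped. Its log2 fold change was 2.29 with a standard error of 0.724 (edgeR adjusted p = 0.101), and 2.05 without NCD replicate 1 (edgeR adjusted p = 0.125).

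Ms4a4d differed least between the diets. It measured 11.5, 26.0 and 19.9 on NCD and 34.6, 37.0 and 31.4 on HFD. The HFD values were close to each other and all above the NCD values. The mean was 19.1 ± 7.26 on NCD and 34.3 ± 2.84 on HFD (SD, n = 3 each). The log2 fold change was 0.84 with a standard error of 0.301 (edgeR adjusted p = 0.129). Without NCD replicate 1, in which Ms4a4d was lowest, the change was smaller, 0.60, and its standard error fell to 0.157, with an edgeR adjusted p of 0.0484.

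**Figure D2:**
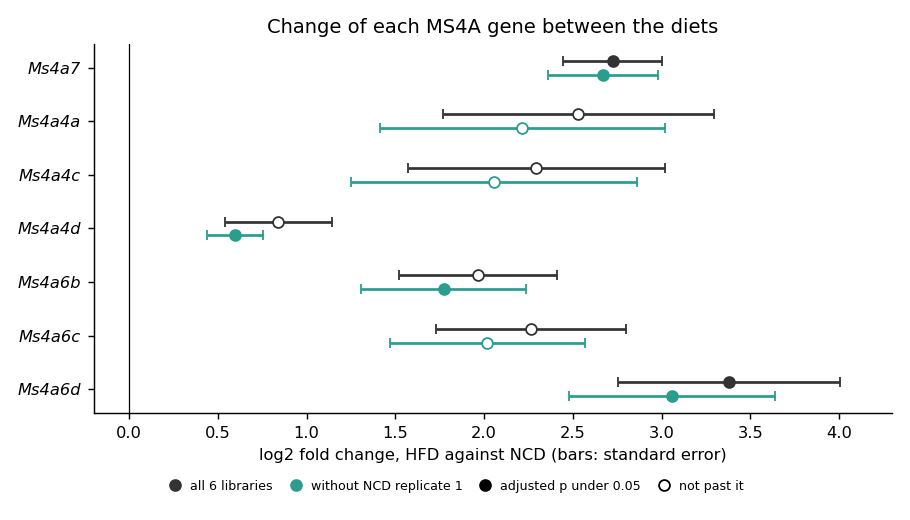
Log2 fold change of each MS4A gene, HFD against NCD, with the standard error as bars, from all 6 libraries (black) and without NCD replicate 1 (green). Filled points passed an edgeR adjusted p of 0.05. Ms4a6d lies farthest right (3.38), Ms4a7 has the shortest bar with all libraries (2.72), and Ms4a4d is nearest 0 (0.84).

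The members differed in which HFD-fed mouse was highest. Ms4a4a, Ms4a4c, Ms4a6b, Ms4a6c and Ms4a6d, 5 of 7 members, were lowest in HFD replicate 1 and highest in HFD replicate 3, at 2.78 to 7.02 times the level of HFD replicate 1. Ms4a7 was highest in HFD replicate 1, with HFD replicate 3 at 0.762 of that level, and Ms4a4d was highest in HFD replicate 2, with HFD replicate 3 at 0.907 of HFD replicate 1. Of all genes tested, 34.9% were highest in HFD replicate 3 and 39.5% in HFD replicate 1, and 37.4% were lowest in HFD replicate 1. The coefficient of variation (CV) among HFD-fed mice ran from 8.28% for Ms4a4d and 23.5% for Ms4a7 to 46.5% for Ms4a6b, 53.0% for Ms4a6c, 57.5% for Ms4a6d, 74.5% for Ms4a4c and 82.1% for Ms4a4a.

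Marker genes of myeloid cells also differed in which of these mice was highest. All 5 monocyte genes (Ly6c2, Ccr2, Plac8, Chil3 and F10) and all 6 neutrophil genes were highest in HFD replicate 3 and lowest in HFD replicate 1. Ccr2, the receptor by which monocytes enter tissue, measured 186, 288 and 525 in HFD replicates 1 to 3. In contrast, 7 of 11 macrophage genes were highest in HFD replicate 1, among them Adgre1, which encodes F4/80, at 418, 211 and 233, and Cd68, a lysosomal protein, at 467, 238 and 279. Fcgr1, Cd14 and Itgam were highest in HFD replicate 3, and C1qa, a subunit of complement C1q, in HFD replicate 2 (378, 412 and 389). With 3 mice this is a description with no test.

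**Figure D3:**
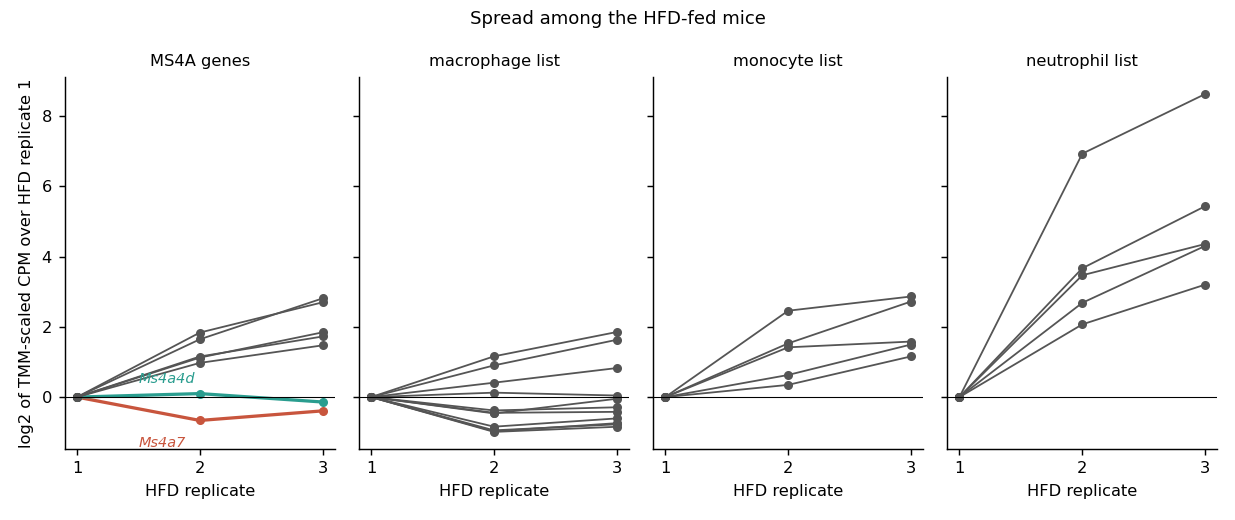
Log2 of the TMM-scaled CPM of each gene in an HFD library over that in HFD replicate 1, for the 7 MS4A genes and the macrophage, monocyte and neutrophil lists. Lines join the values of 1 gene and the replicates have no order. A gene at 0 in a library (Ly6g) is left out. Ms4a7 (red) and Ms4a4d (green) lie below or near 0 in HFD replicate 3, while the other 5 MS4A genes and the monocyte genes lie above it.

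Between the diets, the macrophage list had 7 of 11 genes higher and 0 lower (edgeR adjusted p under 0.05), a median log2 fold change of 1.95, and 10 higher without NCD replicate 1. Its summed level was 583 to 1262 in NCD and 3136 to 4474 in HFD libraries. The monocyte list had 2 of 5 genes higher, Ccr2 and F10, and a summed level of 115 to 201 on NCD and 284 to 1003 on HFD. Of the neutrophil list 1 of 4 tested genes was higher, Csf3r, with a summed level of 4.20 to 9.35 on NCD and 20.6 to 401 on HFD, while Ly6g, its defining marker, was at 0 in 4 libraries and at most 0.175 in the others. Gzma passed in the NK cell list and Col1a1 in the stromal list, both higher, and 9 of 11 seminal vesicle genes were lower. The edgeR test called 0 genes with all libraries in the dendritic cell, T cell, B cell, mast cell, adipocyte, endothelial and epithelial lists, where 2 dendritic cell genes and 1 B cell gene (higher) and 2 mast cell and 3 epithelial genes (lower) had an unadjusted p under 0.05, and DESeq2 called 2 dendritic cell genes higher and 3 epithelial genes lower. Without NCD replicate 1, 3 of 6 adipocyte genes and 1 of 5 epithelial genes were lower and 1 of 4 endothelial genes higher. The summed level of the 7 MS4A genes was 69.6, 162 and 106 on NCD and 308, 537 and 825 on HFD. It was thus highest in HFD replicate 3, as were the monocyte, neutrophil, dendritic cell (25.6, 30.4 and 33.5), T cell (10.1, 15.9 and 18.8) and B cell (17.9, 9.65 and 20.6) sums. The macrophage sum (4474, 3136 and 3616) and the adipocyte sum (7606, 5821 and 4086) were highest in HFD replicate 1, and the adipocyte sum was lowest in HFD replicate 3. The adipocyte sum included Lep at 2652, 815 and 592. Lep and Cidec were highest in HFD replicate 1, but Adipoq, Plin1, Lipe and Pparg were highest in HFD replicate 2. The part of each cell type in the MS4A change was not tested.

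The rest of the family was taken as a list of the other Ms4a genes and the related Tmem176a and Tmem176b, of which 10 were in the table and 6 could be tested. Of these, 1 was higher on HFD, 0 were lower, and the median log2 fold change was 0.91. Tmem176a, an endosomal channel-like protein of antigen-presenting cells, measured 38.6, 34.3 and 28.8 on NCD and 67.6, 123 and 119 on HFD, with a log2 fold change of 1.60 (edgeR adjusted p = 0.0289). Tmem176b measured 89.4, 105 and 88.2 on NCD and 126, 218 and 218 on HFD, with a log2 fold change of 0.99 (edgeR adjusted p = 0.0666). The pair overlaps by 3882 bases on opposite strands, and the sources used here do not say whether reads were counted by strand, so their reads may not be separate.

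Ms4a8a measured 1.07, 4.83 and 4.50 on NCD and 7.82, 13.7 and 18.9 on HFD, at a log2 fold change of 1.95 (edgeR adjusted p = 0.105), and passed without NCD replicate 1 (1.55, edgeR adjusted p = 0.0443). Ms4a4b, known from T cells, measured 5.85, 8.45 and 5.84 on NCD and 8.72, 12.6 and 14.4 on HFD (log2 fold change 0.82, edgeR adjusted p = 0.117). Ms4a4b passed in DESeq2 (adjusted p = 0.0334), as did Ms4a8a (0.0123), Tmem176a (4.29e-06) and Tmem176b (0.00362). Ms4a1 and Ms4a2 passed in neither tool. Ms4a1 (CD20) measured 0.94, 2.07 and 4.48 on NCD and 0.78, 0.76 and 3.84 on HFD (log2 fold change -0.49, edgeR adjusted p = 0.730), and Ms4a2 was at most 0.585 in any library (log2 fold change -0.71, edgeR adjusted p = 0.616). Ms4a3 and Ms4a10 had 0 counts in every library. Ms4a5 had 2 counts and Ms4a18 4 counts, all in HFD replicate 1. Ms4a13, Ms4a14 and Ms4a15 were not analysed here.

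To compare levels between genes, counts were divided by exon length and library total (FPKM). On NCD the order of mean FPKM was Ms4a6c (14.2 ± 9.46), Ms4a4d (11.8 ± 7.17), Ms4a4c (9.47 ± 6.82), Ms4a4a (7.97 ± 5.24), Ms4a6d (7.04 ± 4.75), Ms4a6b (6.52 ± 3.89) and Ms4a7 (5.29 ± 2.68; SD, n = 3). Because the library total of NCD replicate 1 was mostly seminal vesicle RNA, neighbours were compared within each library. Ms4a6c over Ms4a4d, Ms4a4d over Ms4a4c, and Ms4a4a over Ms4a6d held in all 3 NCD libraries with a mean log2 ratio above its SD, and the other neighbours did not differ beyond their spread. The last 2 of these orders depend on the exon lengths used. Ms4a4a had fewer counts than Ms4a6d in all 3 NCD libraries, but 836 exon bases against 1536. In NCD replicate 2, Ms4a4d had 1555 counts against 1676 for Ms4a4c. On HFD the order was Ms4a6d (95.5 ± 57.5), Ms4a6c (91.4 ± 51.1), Ms4a4c (62.7 ± 47.9), Ms4a4a (60.3 ± 50.7), Ms4a7 (48.6 ± 9.10), Ms4a6b (34.6 ± 17.1) and Ms4a4d (27.8 ± 2.57; SD, n = 3). There only Ms4a6c over Ms4a4c differed beyond the spread.

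Within a library, the share of each gene in the summed FPKM of the 7 does not depend on the library total. Ms4a6d made up 8.39, 10.98 and 12.6% on NCD and 18.7, 22.9 and 23.8% on HFD, with no overlap between the diets. Ms4a4d made up 18.9, 18.0 and 20.3% on NCD and 12.6, 7.59 and 4.05% on HFD, again with no overlap, and went from the second rank in all 3 NCD libraries to rank 4, 7 and 7. Ms4a6c kept a similar share, 22.5, 24.0 and 21.4% on NCD and 18.6, 23.3 and 21.8% on HFD. Ms4a7 made up 13.4, 8.24 and 7.41% on NCD and 27.6, 9.79 and 7.46% on HFD, so that it was the first of the 7 in HFD replicate 1 and the sixth in HFD replicate 3. Its FPKM was 3.69 times that of Ms4a4c in HFD replicate 1 and 0.652 and 0.433 times in HFD replicates 2 and 3, against 0.485 to 0.886 times on NCD.

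**Figure D4:**
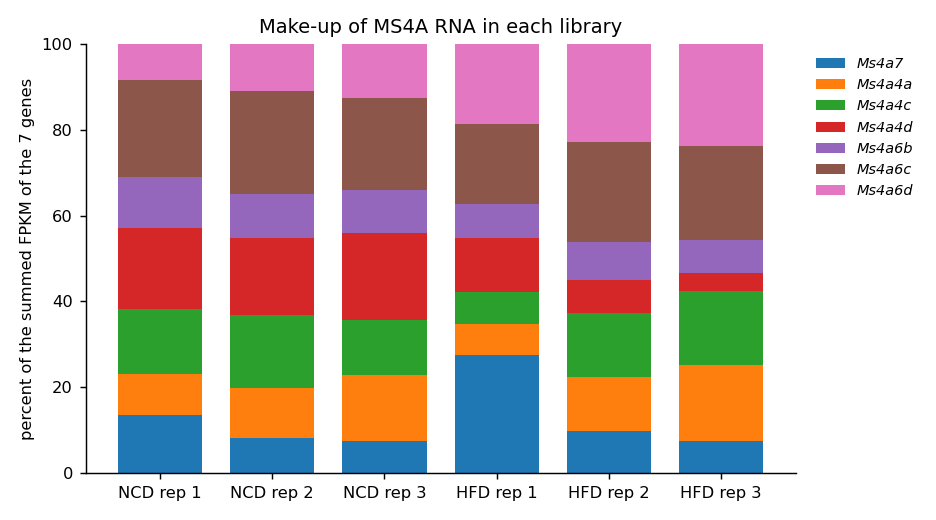
Stacked bars of the percent that each MS4A gene makes up of the summed FPKM of the 7 in every library. The Ms4a6d share (top) is 8.39 to 12.6% on NCD and 18.7 to 23.8% on HFD, the Ms4a4d share is 18.0 to 20.3% on NCD and 4.05 to 12.6% on HFD, and Ms4a7 (bottom) reaches 27.6% in HFD replicate 1.

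Each MS4A gene was then set against the macrophage list in the same library, as its log2 count minus the mean log2 count of the 11 genes. Ms4a4d was at -1.69, -1.56 and -1.84 on NCD and -2.93, -2.61 and -3.13 on HFD. All HFD libraries were below all NCD libraries, a difference of -1.19 (exact permutation test, two-sided, p = 0.1, the smallest p that 3 mice against 3 allow), so no such ratio could pass 0.05. Ms4a6d was at -2.84, -2.25 and -2.51 on NCD and -2.34, -0.99 and -0.55 on HFD, a difference of 1.24 (exact permutation p = 0.2). Ms4a7 was at -2.0, -2.50 and -3.11 on NCD and -1.62, -2.06 and -2.07 on HFD, a difference of 0.62 (exact permutation p = 0.3), which turned to -0.14 with Adgre1 alone as the reference. The differences of the other 4 genes were 0.16 for Ms4a4a, -0.06 for Ms4a4c, -0.20 for Ms4a6b and 0.10 for Ms4a6c (exact permutation p = 0.8 to 1), less than the spread between HFD-fed mice, and changed sign under another reference or without 1 mouse. The difference of Ms4a4d was -1.07 to -1.33 with any 1 mouse left out and that of Ms4a6d 0.87 to 1.76. A single reference gene made each difference larger or smaller in size, depending on the gene. With Adgre1 alone the difference was -1.95 for Ms4a4d and 0.48 for Ms4a6d (exact permutation p = 0.1 and 0.6), and with Csf1r alone it was -0.74 and 1.69 (exact permutation p = 0.1 for both).

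**Figure D5:**
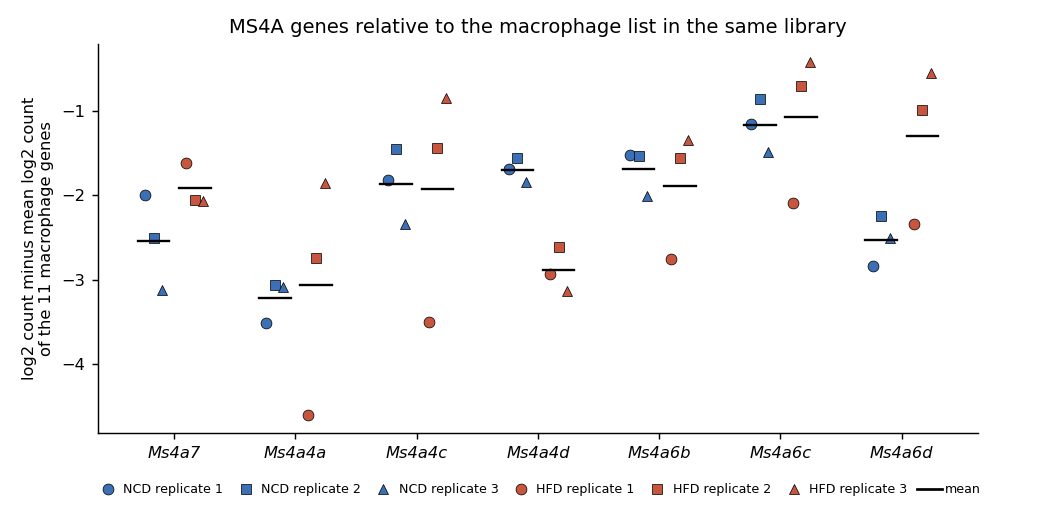
Log2 count of each MS4A gene minus the mean log2 count of the 11 macrophage genes in the same library, NCD in blue and HFD in red, with a bar at the mean of 3 mice. Ms4a4d separates the diets (NCD -1.84 to -1.56, HFD -3.13 to -2.61), and in Ms4a4a, Ms4a4c, Ms4a6b and Ms4a6c HFD replicate 1 lies below the NCD libraries.

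The genes whose log2 level was most like the mean of the 7 MS4A genes over the 6 libraries were H2-M3, an MHC class Ib gene (Pearson r = 0.9995), Sp110, a nuclear body protein (0.999), Nfkb2, a subunit of NF-kappaB (0.997), Cd40, a costimulatory receptor of antigen-presenting cells (0.997), and Ifitm2, an interferon-induced membrane protein (0.996). H2-M3 measured 7.73, 13.6 and 10.7 on NCD and 20.02, 27.3 and 33.4 on HFD. It therefore had the low values in replicate 1 of both diets that most members had. The genes most like Ms4a7 alone were others: Dpep3, a membrane dipeptidase (0.998), Cacna1f, a calcium channel subunit (0.998), Mpeg1, the pore-forming perforin-2 of macrophages (0.998), Rab7b, a small GTPase of endosomes (0.997), and Cd72, a receptor of B cells and macrophages (0.997). Mpeg1 measured 83.1, 126 and 76.6 on NCD and 801, 457 and 699 on HFD, and like Ms4a7 it was highest in HFD replicate 1. The level of Dpep3 was 0 in 2 NCD libraries and at most 1.65 elsewhere.

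Among the members themselves, Ms4a7 had its lowest r with Ms4a4c (0.714) and Ms4a4a (0.715), and it had higher r with Adgre1 (0.986) and Cd68 (0.981). With other genes of the macrophage list the r of Ms4a7 was lower, at 0.817 for Cd14 and 0.452 for Mertk. Ms4a6d had r of 0.998 with Fcgr1, the high-affinity IgG receptor, and 0.995 with Ccr2. Its r was 0.506 with Mertk of the macrophage list, 0.457 with Plac8 of the monocyte list and 0.973 with S100a8 of the neutrophil list. These values come from 6 libraries that fall into 2 diets and share 1 scaling, so they are descriptions with no p.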

How the data were processed

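RNA of gWAT had been extracted with TRIzol and made into libraries with a stranded TruSeq mRNA kit. The authors deposited raw read counts by gene and mouse, without normalization. Their processing notes name bcl2fastq 2.20.0, Trimmomatic, HISAT2 2.1.0, StringTie 1.3.4d, DESeq2 and builds mm10 and GRCm38. The annotation and strand setting used in counting were not found in those notes or the methods. Values of 0 columns were left unused. Of 19790 identifiers, 48 (0.629% of counts) had no symbol.

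Counts were filtered with filterByExpr (minimum 10, total 15), TMM-scaled and tested with edgeR 4.0.16 (glmQLFTest, in R 4.3.3), and p-values were adjusted by Benjamini-Hochberg over all genes kept. Standard errors are log2 fold changes over the root of the F statistic. Ratios within a library used a pseudocount of 0.5 counts. FPKM used the union of exons of GENCODE vM21 basic transcripts. Pearson r used log2 of TMM-scaled CPM plus 0.5. Of these steps, the edgeR test was tried on simulated counts with known fold changes. No library rich in seminal vesicle RNA, like NCD replicate 1, was simulated. Alternatives were DESeq2 1.42.0, limma 3.58.1 voom, other scalings and filters, and leaving out each mouse.

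The members, marker lists and motifs were chosen with earlier results of these data known. Named genes are the members, the rest of the family, listed markers, and the 5 genes of highest r with the mean of the members and with Ms4a7. The series describes the 3 libraries per diet as biological replicates.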

Additional observations from a re-analysis of the deposited data

How the results depend on the processing

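All 7 MS4A genes kept a log2 fold change above 0 in all 91 refits (13 per gene), and 73 of these also kept their side of the threshold. The number of all genes called was 1139 (74.6% higher on HFD), 3904 in DESeq2 (55.1% higher), 12 with the replicate number as a block (replicate block), and 2 to 3234 when 1 mouse was left out, where 3234 (51.5% higher) is without NCD replicate 1. The members called were 2, with 6 in DESeq2, 0 in the replicate block and 0 to 4 without 1 mouse, and the other family genes called were 1, with 4, 0 and 0 to 2. In the replicate block the log2 fold change was 2.73 for Ms4a7 and 3.35 for Ms4a6d (edgeR adjusted p = 0.0675 for both). Mice with the same number did not deviate together (correlations of -0.050, -0.031 and -0.0068), so the numbers were not taken as pairs. The count column of HFD replicate 3 bears another number, so NCD and HFD replicate 3 share theirs only in the sample titles. DESeq2 also called Ms4a4a (2.53), Ms4a4c (2.29), Ms4a6b (1.97) and Ms4a6c (2.26). With 1 mouse left out the log2 fold change was 2.54 to 2.96 for Ms4a7, 1.69 to 2.99 for Ms4a4a, 1.61 to 2.80 for Ms4a4c, 0.60 to 1.12 for Ms4a4d, 1.61 to 2.28 for Ms4a6b, 1.84 to 2.67 for Ms4a6c and 2.88 to 3.74 for Ms4a6d. The adjusted p of Ms4a7 was 0.0578 without NCD replicate 2, 0.0706 without NCD replicate 3, and 0.0548, 0.0598 and 0.0971 without HFD replicates 1, 2 and 3. That of Ms4a6d was 0.0978, 0.0822, 0.0566, 0.105 and 0.118 in the same order (edgeR). Such fits have 1 mouse fewer.

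Of the differences relative to the macrophage list, those of Ms4a7 (-0.14), Ms4a4a (-0.60) and Ms4a6c (-0.66) turned with Adgre1 alone as the reference, and those of Ms4a4c (0.39) and Ms4a6b (0.25) with Csf1r alone. With 1 mouse left out they ran from -0.45 to 0.93 for Ms4a4a, -0.60 to 0.72 for Ms4a4c, -0.47 to 0.24 for Ms4a6b and -0.23 to 0.60 for Ms4a6c. The mouse decided the sign for Ms4a4a without HFD replicate 2 (-0.0072) or 3 (-0.45), for Ms4a4c without NCD replicate 2 (0.15) or HFD replicate 1 (0.72), for Ms4a6b without HFD replicate 1 (0.24), and for Ms4a6c without NCD replicate 3 (-0.063) or HFD replicate 2 (-0.086) or 3 (-0.23). The cause was not tested. Total counts without TMM moved the median of all genes to 0.45. At 3 mice per diet, 4524 of 15241 genes had an unadjusted p under 0.05, the 7 members among them.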
